A study of Mus musculus with 24 samples.

Results

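The 43 genes described here encode membrane proteins of the lysosome (28 genes) and parts of the vacuolar proton pump, the V-ATPase (15 genes with Atp6 symbols). They were taken by gene name from a fixed list that used no measured value, out of 54532 genes in the count table, and all 43 were among the 18065 genes tested. The tissue was the RPE (retinal pigment epithelium), a pigmented layer that lies against the photoreceptors, from wild-type (WT) mice of the strain 129S1/SvlmJ that carry the Leu450 form of Rpe65. The mice lived under 12-h cyclic light, and 3 were taken at each of 0, 1, 3, 5, 6, 9, 15 and 16 h after light onset, 24 mice in all. The stated purpose was circadian regulation of genes of autophagy and the lysosome. Times from 1 to 9 h lay in the light and 15 and 16 h in the dark. No group received a drug or carried a deletion or transgene per the labels, and their ages are not given there.

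Lysosomes are acidic organelles that break down material taken up by phagocytosis and autophagy. Their membrane holds heavily glycosylated proteins that shield it from the enzymes inside, transporters that release the products, and channels for chloride, calcium, sodium and potassium. The V-ATPase pumps protons inward: its V1 sector on the cytosolic face splits ATP and turns a rotor, and its V0 sector in the membrane carries the protons. The RPE uses lysosomes to digest the tips that photoreceptors shed daily, mostly around light onset. The transcription factor TFEB is known to bind an element with the core CACGTG upstream of many lysosomal genes.

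Libraries held 14073440 to 17492470 counts. A pair of libraries, from mouse 3 of 15 h and from mouse 3 of 6 h, differed from the rest in composition: cytosolic ribosomal protein genes made up 5.12% and 2.38% of their counts, against 1.18% to 1.68% in the other 22, and mitochondria-encoded transcripts 0.837% and 3.34%, against 3.84% to 6.81%. Among the members, mouse 3 of 15 h lay above all 22 libraries for 8 of 28 lysosomal membrane genes and 8 of 15 V-ATPase genes, and below all of them for 12 and 4. Its distance from the mean of the 22 ran from -2.49 to 2.11 on the log2 scale for membrane genes and from -5.30 to 1.67 for V-ATPase genes. Mouse 3 of 6 h lay above all 22 for 8 and 9 genes and below for 8 and 2. Such counts were not taken over all genes, so they are not read as a trait of the members. As this pair of libraries stood apart, each result is given for 24 libraries and for 22, in which 6 h and 15 h keep 2 mice each. These libraries were left out after their values had been seen. Each p-value sets a difference against a spread between mice that was pooled over the times and moderated across genes. That spread rests on 2 or 3 mice a time.

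Defining RPE markers were abundant: the 13 listed genes, which include Rpe65, Rlbp1 and Ttr, summed to 38464 to 54969 CPM (counts scaled to library size, with TMM factors) in the 22 libraries and to 137614 CPM in mouse 3 of 15 h. Markers of other cells were present too, with no gene found of rods, macrophages and mast cells, endothelium, fibroblasts and mural cells, melanocytes and Schwann cells or red cells averaging 0. The 15 rod genes summed to 3359 to 5073 CPM at 0 h and to between 1059.6 and 3042 CPM at the later times in the 22 libraries. In bulk RNA, fewer cells of a type and less RNA per cell cannot be told apart.

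Compared per kilobase of exonic length, the membrane genes spanned from 1.00 CPM per kilobase for Slc38a9, an arginine sensor that signals to mTORC1, to 528 for Laptm4a, a small transmembrane protein of late endosomes and lysosomes, with a median of 15.2 over the 28 genes. Next among membrane genes stood the tetraspanin Cd63 at 161 CPM per kilobase and the glycoprotein Lamp1 at 154, whose ranges over libraries overlapped. Lamp2, its relative with a role in chaperone-mediated autophagy, had 43.5 CPM per kilobase. Length here counts all annotated exons, 16704 bases for Slc38a9, and not the transcripts present. In plain CPM the lowest membrane gene was Tpcn2 at 16.1, with Slc38a9 at 16.7. The V-ATPase genes were more even, with a median of 75.1 CPM per kilobase and a highest level of 164 for Atp6v1g1, a subunit of the stalk that holds the pump's sectors together. The subunits of the ATP-splitting ring, Atp6v1a and Atp6v1b2, had 56.8 and 48.1 CPM per kilobase. The lowest V-ATPase value, 6.27 CPM per kilobase for Atp6v0c, the proton-carrying ring subunit, is uncertain. Its row held at most 440 counts in a library, while the row of its pseudogene Atp6v0c-ps2 on chromosome 6 held up to 5100, so reads of the gene may have been assigned to the copy. Summed, gene and copy averaged 258 CPM in the 22 libraries, against 21.2 CPM for the gene alone, an alternative chosen after seeing the data.

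**Figure D1:**
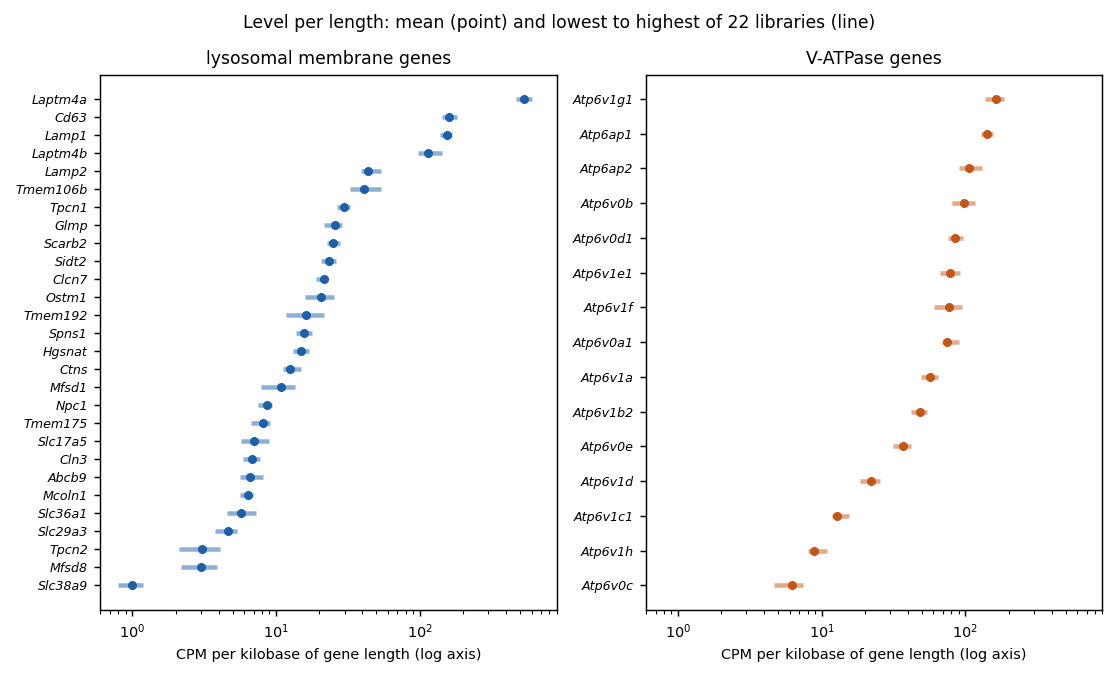
Level of each gene in CPM per kilobase of exonic length (log axis) for lysosomal membrane genes (left) and V-ATPase genes (right); points are means and lines run from the lowest to the highest of 22 libraries. Membrane genes span from 1.00 to 528 and V-ATPase genes from 6.27 to 164 CPM per kilobase.

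Because many lysosomal genes carry the TFEB-type element, the start regions of the members were searched for the letters CACGTG, which read the same on both strands. RefSeq start regions (GRCm38.p6, 250 bases before to 50 after each start) were held for 35 of the 43 genes. The letters occurred in 10 of these 35 (28.6%), 6 of 24 membrane genes and 4 of 11 V-ATPase genes, against 8.09% of 27025 genes with such a region. The longer palindrome TCACGTGA, which contains CACGTG, occurred in 8 of 35 (22.9%), against 1.12% of genes. Those 27025 genes were not limited to genes tested here, and they were not matched to the members in level or base content. The sites are shown as a sequence feature of 10 of the 35 members that their choice did not use, with the CACGTG at issue in capitals in 30 bases read 5′ to 3′ along the gene's strand.
Lamp1, chr8:13159088-13159117 (+ strand): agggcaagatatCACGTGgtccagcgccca
Lamp1, chr8:13159121-13159150 (+ strand): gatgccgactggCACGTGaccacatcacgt
Mcoln1, chr8:3500436-3500465 (+ strand): ggtcgcgcttgtCACGTGttcagttcaggc
Mcoln1, chr8:3500462-3500491 (+ strand): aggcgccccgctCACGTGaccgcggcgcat
Clcn7, chr17:25133386-25133415 (+ strand): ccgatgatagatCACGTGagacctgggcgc
Cln3, chr7:126583340-126583369 (- strand): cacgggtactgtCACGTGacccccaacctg
Mfsd1, chr3:67582720-67582749 (+ strand): gcccgagcaagtCACGTGaacacacgtgat
Slc36a1, chr11:55204325-55204354 (+ strand): gggagccagcatCACGTGacagggcccgga
Atp6v0b, chr4:117887348-117887377 (- strand): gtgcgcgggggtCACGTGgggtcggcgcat
Atp6v0d1, chr8:105566050-105566079 (- strand): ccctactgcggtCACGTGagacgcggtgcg
Atp6v0e, chr17:26676387-26676416 (+ strand): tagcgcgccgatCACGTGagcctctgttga
Atp6v1a, chr16:44139373-44139402 (- strand): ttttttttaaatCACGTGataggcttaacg
Mfsd1, a transporter, held 5 such sites and Lamp1 held 4, while Atp6v0d1, Atp6v0e and Atp6v1a, which encode V-ATPase subunits, held 1 each. A match describes the letters only.

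Fitted ranges of the members over the day were mostly small. In the 22 libraries the fitted range, the highest minus the lowest time on the log2 scale, had a median of 0.24 over the 28 membrane genes and 0.25 over the 15 V-ATPase genes, against 0.49 over all genes tested. This range also widens with noise, and the members were not compared with genes of like level, so the lower median does not show steadier levels. An F test over the 8 times passed an adjusted p of 0.05 for 6 of 28 membrane genes (Ostm1, Mfsd8, Tmem106b, Tmem192, Slc17a5 and Slc29a3) and 3 of 15 V-ATPase genes (Atp6v1b2, Atp6ap2 and Atp6v0a1), where 16% of all genes passed. In all 24 libraries 1 membrane gene, Ostm1, and 0 V-ATPase genes passed, where 1.08% of all genes did. At an unadjusted p under 0.05 there were 5 and 2 in the 24 libraries, where 17% of all genes were, and DESeq2 called 3 and 2, where it called 10.7% of all genes. In the 22 libraries DESeq2 called 11 and 5, where it called 24.5%. Summed CPM of the 28 membrane genes ran from 4203 to 4737 in the 22 libraries, and of the 15 V-ATPase genes from 2908 to 3424. The highest of the 8 time means fell at 6 h for 9 of 28 membrane genes and 9 of 15 V-ATPase genes, and the lowest for 4 and 1. The mean of 6 h rested on 2 mice, and such counts were not taken over all genes. The 2 retained libraries of 6 h also had RPE marker sums of 50876 to 53366 CPM, against 39536 to 45728 CPM at 0 h, and the part of this in the members' levels was not tested.

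**Figure D2:**
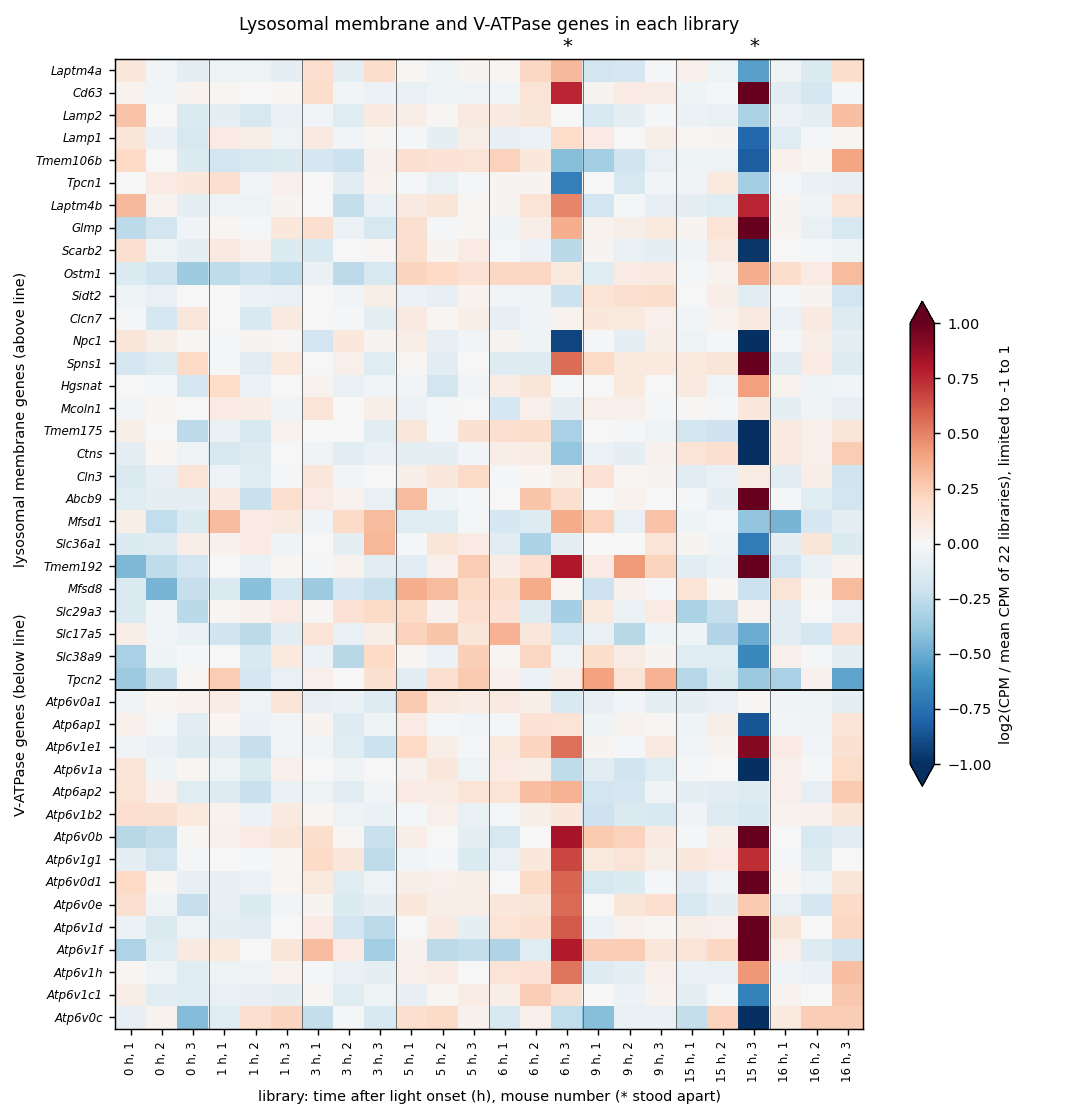
Log2 of CPM over the mean of 22 libraries for each gene (rows, membrane genes above the line, V-ATPase genes below) in each of the 24 libraries (columns, by hour and mouse); colours are limited to -1 to 1. Mouse 3 of 15 h and mouse 3 of 6 h, marked with stars, carry many of the strong colours, and Ostm1 and Mfsd8 are below their means at 0 to 3 h and above them at 5, 6 and 16 h.

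The clearest change was in Ostm1 and Mfsd8. Ostm1 encodes the partner subunit that the lysosomal chloride-proton exchanger Clcn7 needs, and Mfsd8 (CLN7) encodes a lysosomal membrane protein whose human form is mutated in a neuronal ceroid lipofuscinosis. Ostm1 had 134, 128 and 115 CPM at 0 h, then 123, 127 and 124 at 1 h, then 141, 123 and 132 at 3 h. It had 172, 169.6 and 163 CPM at 5 h, then 170.3 and 169.7 at 6 h, then 135, 156 and 157 at 9 h, and 145 and 151 CPM at 15 h, then 167, 156 and 183 at 16 h. All 5 retained mice of 5 and 6 h, and all 3 of 16 h, lay above all 9 mice of 0, 1 and 3 h. The libraries left out had 157 CPM in mouse 3 of 6 h and 189.8 CPM in mouse 3 of 15 h. In 22 libraries Ostm1 was higher at 5 h than at 0 h by 0.42 ± 0.07 (SE) on the log2 scale (adjusted p = 0.00176). The difference was 0.43 ± 0.08 (SE) at 6 h (adjusted p = 0.00417) and 0.42 ± 0.07 (SE) at 16 h (adjusted p = 0.00194). In 24 libraries no membrane gene passed at 5, 6 or 16 h, with smallest adjusted p-values of 0.109, 0.179 and 0.146. At 9 h the difference of Ostm1 from 0 h in 22 libraries was 0.24 ± 0.07 (SE) (adjusted p = 0.0416), which 7 of 22 omissions of a single library raised above 0.05. A replicate block (replicate number added to the model) raised it to 0.0551. Over the 8 times its fitted range was 0.45 (adjusted p = 0.000153), and 0.43 in 24 libraries (adjusted p = 0.0447). That last call held in 4 of 24 omissions of a single library, with adjusted p-values from 0.00142 to 0.103. It was lost under RLE scaling, with no filter on low counts and with the replicate block (0.0568, 0.181 and 0.0878).

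Mfsd8 had 25.4, 20.4 and 23.99 CPM at 0 h, then 25.5, 21.05 and 24.9 at 1 h, then 21.99, 25.1 and 24.1 at 3 h. It had 36.2, 35.2 and 32.2 CPM at 5 h, then 31.8 and 36.4 at 6 h, then 24.4, 28.96 and 27.96 at 9 h, and 30.9 and 28.3 CPM at 15 h, then 30.8, 28.6 and 35.1 at 16 h, with 28.5 CPM in mouse 3 of 6 h and 24.2 CPM in mouse 3 of 15 h. Again all 5 retained mice of 5 and 6 h lay above all 9 of 0 to 3 h, as did the 3 of 16 h. In 22 libraries Mfsd8 was higher at 5 h than at 0 h by 0.57 ± 0.11 (SE) on the log2 scale (adjusted p = 0.00343). The difference was 0.55 ± 0.12 (SE) at 6 h (adjusted p = 0.0132) and 0.44 ± 0.11 (SE) at 16 h (adjusted p = 0.0326). None of these differences of Mfsd8 passed in 24 libraries. Its fitted range over the 8 times was 0.57 in 22 libraries (adjusted p = 0.00101, below 0.05 in all 22 omissions of a library) and 0.57 in 24 libraries (adjusted p = 0.0656). The 6 h call was lost when mouse 2 of 6 h (adjusted p = 0.19) or mouse 2 of 0 h (0.0598) was dropped, and the 16 h call without any of 4 libraries, at most 0.172. RPE marker sums were 47554 to 52652 CPM at 5 h, 50876 to 53366 CPM at 6 h and 46414 to 54969 CPM at 16 h. The sums were 39536 to 45728 CPM at 0 h, 39074 to 47600.0 CPM at 1 h and 38464 to 43369 CPM at 3 h. Their part in the 2 genes' values was not tested. Clcn7 itself, the partner of Ostm1, had 101 to 123 CPM in the 22 libraries and a fitted range of 0.14 (adjusted p = 0.718).

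The bases before the RefSeq starts of Ostm1, Mfsd8 and Tmem192, which led the test over the 8 times (Ostm1 and Mfsd8) and the test of a 24 h component (Tmem192), are shown with GGGCGG or its reverse complement CCGCCC, the core of a GC box, in capitals.
Ostm1, chr10:42678666-42678915 (+ strand): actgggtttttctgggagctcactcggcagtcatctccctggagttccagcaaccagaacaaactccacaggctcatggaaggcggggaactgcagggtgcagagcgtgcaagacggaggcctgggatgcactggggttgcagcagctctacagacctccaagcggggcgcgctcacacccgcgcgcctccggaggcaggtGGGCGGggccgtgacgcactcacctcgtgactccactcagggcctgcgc
Mfsd8, chr3:40846855-40847104 (- strand): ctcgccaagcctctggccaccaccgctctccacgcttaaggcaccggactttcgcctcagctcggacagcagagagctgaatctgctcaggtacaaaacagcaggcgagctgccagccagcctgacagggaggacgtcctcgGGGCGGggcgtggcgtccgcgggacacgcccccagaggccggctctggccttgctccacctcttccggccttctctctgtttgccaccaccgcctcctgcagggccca
Tmem192, chr8:64946935-64947184 (+ strand): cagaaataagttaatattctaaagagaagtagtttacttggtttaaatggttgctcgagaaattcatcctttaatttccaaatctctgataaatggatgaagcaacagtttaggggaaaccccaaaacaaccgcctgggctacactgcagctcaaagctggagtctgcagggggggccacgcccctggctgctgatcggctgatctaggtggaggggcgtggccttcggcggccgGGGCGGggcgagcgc
Each of these 250-base stretches held 1 GC box core, which on either strand occurred in 22 of the 35 members with a region and in 35.4% of all genes. None held CACGTG, also not within the 50 bases after the start. Among members with a region, 1 of the 12 that passed any test in 22 libraries held CACGTG (Atp6v0b), and 9 of the 23 that passed none. This split was made after the calls were known, was not tested, and was not counted over all genes.

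**Figure D3:**
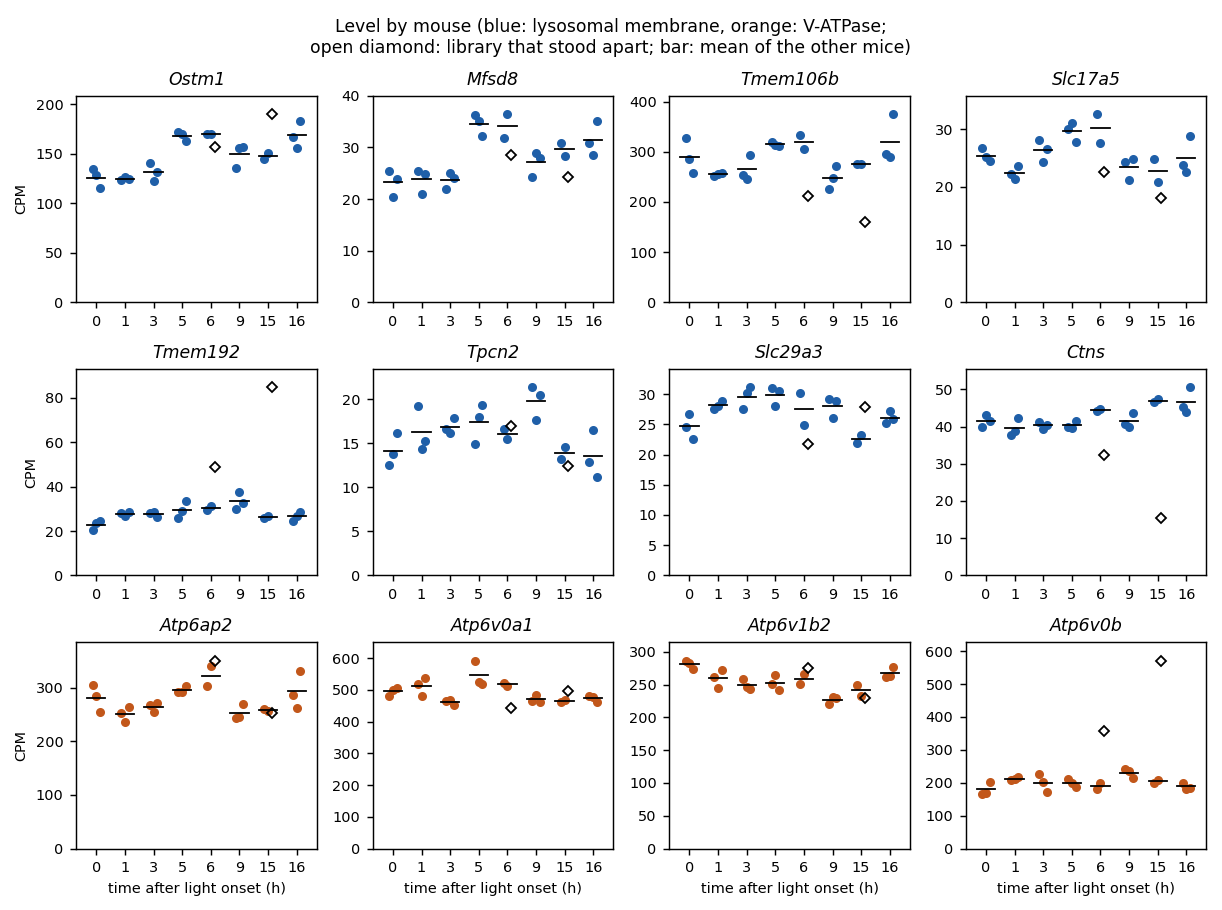
CPM by time after light onset (h) for 12 genes that passed at least 1 test in 22 libraries; filled points are mice, bars the mean of the mice kept, open diamonds mouse 3 of 6 h and mouse 3 of 15 h, and each axis starts at 0. Ostm1 and Mfsd8 step up at 5 h, Tmem192, Tpcn2 and Atp6v0b are highest at 9 h, and Atp6v1b2 is lowest at 9 h, while the diamonds of Tmem192, Ctns and Atp6v0b lie far from the other mice.

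A second group was highest at 9 h, late in the light phase. Tmem192, a lysosomal membrane protein often tagged to purify lysosomes, had 20.6, 23.6 and 24.6 CPM at 0 h, then 28.2, 26.8 and 28.5 at 1 h, then 27.9, 28.8 and 26.1 at 3 h. It had 25.9, 29.1 and 33.5 CPM at 5 h, then 29.5 and 31.5 at 6 h, then 29.8, 37.7 and 32.8 at 9 h, and 26.01 and 26.8 CPM at 15 h, then 24.7, 26.8 and 28.8 at 16 h. All 3 mice of 9 h lay above all 3 of 0 h, while single mice of 5 and 6 h lay as high as the lowest of 9 h. The libraries left out had 49.1 CPM in mouse 3 of 6 h and 84.7 CPM in mouse 3 of 15 h, the highest values of all. Tmem192 was higher at 9 h than at 0 h by 0.54 ± 0.10 (SE) on the log2 scale in 22 libraries (adjusted p = 0.00188, below 0.05 in all 22 omissions of a library) and by 0.55 ± 0.31 (SE) in 24 (adjusted p = 0.629). Its 24 h component, a fitted cosine, had a peak-to-trough log2 ratio of 0.49 ± 0.11 (SE) and a peak at 8.8 ± 0.5 h (SE) in 22 libraries (adjusted p = 0.00791), and a ratio of 0.68 ± 0.17 (SE) in 24 (adjusted p = 0.298).

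Tpcn2, a channel of endosomes and lysosomes that conducts sodium and calcium, had 21.3, 17.6 and 20.5 CPM at 9 h, against 12.5, 13.8 and 16.2 CPM at 0 h, with no overlap. At night it had 13.2 and 14.6 CPM at 15 h, then 12.9, 16.5 and 11.1 at 16 h, and at 1 to 6 h from 14.3 to 19.3 CPM. The libraries left out had 16.9 CPM in mouse 3 of 6 h and 12.4 CPM in mouse 3 of 15 h. It was higher at 9 h than at 0 h by 0.48 ± 0.14 (SE) (log2; adjusted p = 0.0395; 0.229 in 24 libraries), and lower at night than by day, with a difference of -0.33 ± 0.10 (SE) (adjusted p = 0.0449; 0.0674 in 24 libraries). Its 24 h component had a log2 ratio of 0.53 ± 0.15 (SE) with a peak at 7.3 ± 0.9 h (SE) (adjusted p = 0.0335; 0.073 in 24 libraries). These calls were lost in 4, 15 and 9 of 22 omissions of a library. With the replicate block the 9 h call (0.0503) and the night call (0.0679) were lost too. Tpcn1, the related channel, was more abundant at 29.5 against 3.06 CPM per kilobase, and its fitted range was 0.13 (adjusted p = 0.499).

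Sidt2, implicated in RNA transport across the lysosomal membrane, had 132, 134 and 136 CPM at 9 h, against 116, 114 and 120.2 CPM at 0 h. The log2 difference was 0.20 ± 0.06 (SE) (adjusted p = 0.0425, and 0.424 in 24 libraries). This call was lost in 9 of 22 omissions, with no filter (0.151) and with the replicate block (0.0567). Atp6v0b, which encodes a proton-carrying subunit of the V0 ring, had 241, 235 and 214 CPM at 9 h, against 166, 170.3 and 203 CPM at 0 h, a difference of 0.35 ± 0.09 (SE) (adjusted p = 0.0138; 0.809 in 24 libraries), lost without mouse 1 or 2 of 0 h or mouse 1 of 9 h. In both genes every mouse of 9 h lay above every mouse of 0 h. Exons of these genes overlap genes on the other strand over 10.4% (Sidt2) and 11.8% (Atp6v0b) of their bases, and the library kit does not mark strand. Marker sums of macrophages and mast cells were 2920.4 to 3311 CPM at 9 h, against 2402 to 2942 CPM at 0 h, and 4 of these 15 markers (Lyz2, Tyrobp, Cma1 and Cpa3) were higher at 9 h while Kit was lower, by edgeR in 22 libraries. Endothelial marker sums were 717 to 1182 CPM at 9 h, against 501 to 827 CPM at 0 h, with overlap. Rod marker sums were lower at 9 h, at 1059.6 to 1708 CPM, against 3359 to 5073 CPM at 0 h. The part of any of these cell types in the rise of these lysosomal genes was not tested.

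**Figure D4:**
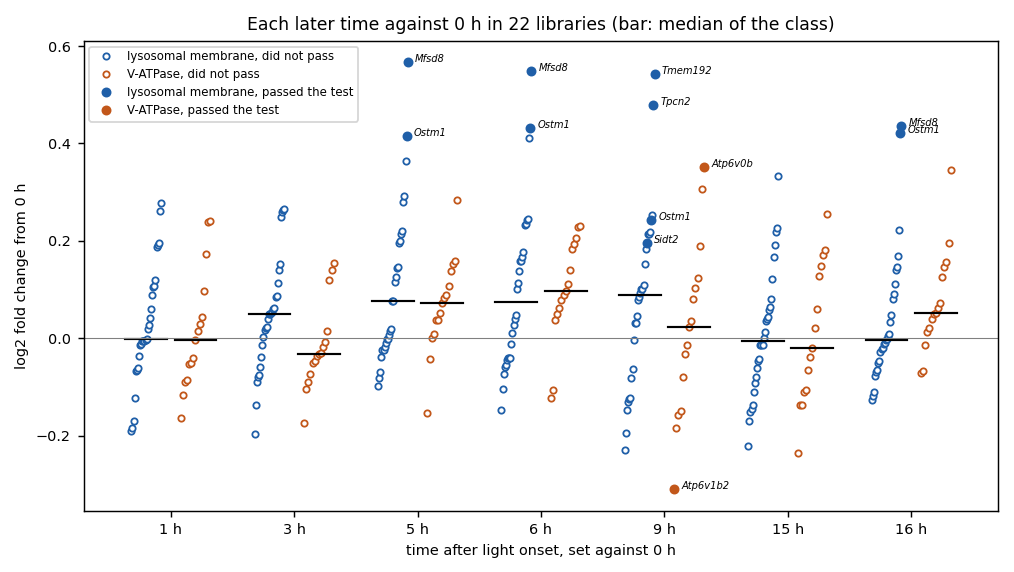
Log2 fold change from 0 h at each later time for every membrane gene (blue) and V-ATPase gene (orange) in 22 libraries; filled points passed an adjusted p of 0.05 and bars are class medians. Passing genes, labelled by name, lie at 5, 6, 9 and 16 h, and class medians stay within 0.1 of 0.

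Against 0 h, whose 3 mice all 7 contrasts share, 2 of 28 membrane genes passed at 5 h, 2 at 6 h, 4 at 9 h and 2 at 16 h, where 3.03%, 2.34%, 8.29% and 2.24% of all genes did. Of the 15 V-ATPase genes, 2 passed at 9 h and 0 at the other times. At 1, 3 and 15 h no member passed in edgeR, where 0.365%, 0.304% and 1.43% of all genes did. At these 3 times 4, 5 and 5 members had an unadjusted p under 0.05, as had 13.1%, 10.3% and 15.4% of all genes, and DESeq2 called 0, 0 and 1, where it called 1.46%, 1.26% and 3.25% of all genes. V-ATPase genes had 4, 5 and 2 members with an unadjusted p under 0.05 at 5, 6 and 16 h, as had 15.8%, 16.6% and 15.1% of all genes, and DESeq2 called 0 at each. DESeq2 called 4.73%, 4.31%, 10.6% and 3.84% of all genes at 5, 6, 9 and 16 h. In 24 libraries no member passed at any time, where 0.0111%, 0%, 0.111%, 0.166%, 0.747%, 0.41% and 0.116% of all genes passed at 1, 3, 5, 6, 9, 15 and 16 h. There the members with an unadjusted p under 0.05 numbered 0, 2, 3, 8, 4, 14 and 2 of 43, against 3.94%, 3.05%, 6.31%, 8.96%, 9.62%, 25.8% and 5.74% of all genes. DESeq2 called 0, 0, 2, 1, 1, 8 and 1, where it called 0.0609%, 0.0277%, 0.769%, 0.963%, 1.99%, 10.3% and 0.72% of all genes. Medians over the membrane genes were 0.08 at 5 h, 0.07 at 6 h and 0.09 at 9 h, against -0.01, -0.02 and 0.01 over all genes. Over the V-ATPase genes they were 0.07, 0.10 and 0.02.

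Tmem106b and Slc17a5 also passed the test over the 8 times. Tmem106b, which affects lysosome size and acidification, had 328, 285 and 259 CPM at 0 h, then 319, 314 and 312 at 5 h, then 334 and 306 at 6 h, then 225, 248 and 271 at 9 h, then 296, 289 and 374 at 16 h. Retained mice of 5 and 6 h lay above those of 9 h, while 0 h overlapped both. The libraries left out had 212 CPM in mouse 3 of 6 h and 161 CPM in mouse 3 of 15 h, both below every mouse of 9 h. The fitted range was 0.37 (adjusted p = 0.0223; 0.493 in 24 libraries). Slc17a5 (sialin), which exports sialic acid, had 22.2, 21.3 and 23.7 CPM at 1 h, then 29.9, 31.1 and 27.8 at 5 h, then 32.6 and 27.7 at 6 h and 24.8 and 20.9 CPM at 15 h. The retained mice of 5 and 6 h lay above those of 1 and 15 h, but mouse 3 of 6 h did not: the libraries left out had 22.6 CPM in mouse 3 of 6 h and 18.1 CPM in mouse 3 of 15 h. Its fitted range was 0.43 (adjusted p = 0.0363; 0.288 in 24 libraries), lost in 7 of 22 omissions.

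Between night and day, 3 of 28 membrane genes and 0 of 15 V-ATPase genes passed in 22 libraries, where 4.67% of all genes did. Of the V-ATPase genes, 1 had an unadjusted p under 0.05, as had 17.8% of all genes, and DESeq2 called 3 membrane and 0 V-ATPase genes, where it called 6.58% of all genes. In 24 libraries 0 of both passed, where 1.39% of all genes did, with 4 and 1 at an unadjusted p under 0.05 (17.8% of all genes) and 1 and 0 by DESeq2, which called 3.6% of all genes. With 15 h alone taken as night, 4 and 2 passed in 24 libraries, where 13.2% of all genes did, and 1 and 0 in 22, where 1.59% did. The 6 genes called in 24 libraries were Cd63, Glmp, Spns1, Tmem175, Atp6v1d and Atp6v1f, and all were lost without mouse 3 of 15 h, with adjusted p-values from 0.5 (Tmem175) to 0.982 (Glmp). With 16 h alone 0 of 43 passed in 24 libraries and 0 in 22, where 0.426% and 4.2% of all genes did, with 3 and 8 at an unadjusted p under 0.05 in edgeR (7.6% and 17.6% of all genes). DESeq2 called 0 and 1 of 43, against 1.15% and 6.14% of all genes.

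Slc29a3, a nucleoside transporter, had 21.9 and 23.2 CPM at 15 h and 25.1, 27.2 and 25.8 CPM at 16 h, against 24.97 to 31.1 CPM in the 14 day mice kept, a difference of -0.25 ± 0.06 (SE) (adjusted p = 0.0184; 0.25 in 24 libraries). The retained mice of 15 h lay below every retained day mouse, while the libraries left out had 21.7 CPM in mouse 3 of 6 h and 27.9 CPM in mouse 3 of 15 h, the first below the retained mice of 15 h and the second inside the day range. Without mouse 1 or 2 of 15 h its adjusted p was 0.15 or 0.066, and with no filter 0.0502. Its fitted range over the 8 times was 0.42 (adjusted p = 0.0467, and 0.424 in 24 libraries). That call was lost in 16 of 22 omissions, with no filter (0.177) and with the replicate block (0.0784). Ctns, the cystine exporter lost in cystinosis, had 46.5 and 47.3 CPM at 15 h and 45.1, 43.9 and 50.5 CPM at 16 h, against 37.8 to 44.6 CPM by day. It was higher at night by 0.18 ± 0.05 (SE) (adjusted p = 0.0283; 0.933 in 24 libraries, where mouse 3 of 15 h had 15.5 CPM). Its night and day mice met at 43.9 and 44.6 CPM, and its adjusted p was 0.118 or 0.147 without either mouse of 15 h and 0.0971 when mouse 3 of 16 h was dropped, and 0.102 with no filter.

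Lamp1, Lamp2, Npc1, Mcoln1, Cln3 and Slc38a9 passed no test in 24 or 22 libraries. Lamp1 had 368 to 449 CPM in the 22 libraries and a fitted range of 0.12 (adjusted p = 0.873), and Lamp2 had 371 to 512 CPM and 0.22 (adjusted p = 0.482). Their 24 h ratios, 0.02 ± 0.05 (SE) and 0.01 ± 0.11 (SE), were, with 0.03 ± 0.05 (SE) for Scarb2, the 3 smallest among the 43 genes. Scarb2 is the receptor that carries glucocerebrosidase to lysosomes. Cd63, a tetraspanin of late endosomes, had 524 to 669 CPM, while the libraries left out had 1003 CPM in mouse 3 of 6 h and 2551 CPM in mouse 3 of 15 h. Its 1 call, with 15 h alone as night in 24 libraries, was a difference of 0.99 (log2; adjusted p = 0.0199), with an adjusted p of 0.808 without mouse 3 of 15 h and 0.0525 with no filter on low counts. Npc1, which exports cholesterol, had 81.00 to 100.4 CPM, and the libraries left out had 48.9 CPM in mouse 3 of 6 h and 16.4 CPM in mouse 3 of 15 h. The calcium channel Mcoln1 had 42.6 to 52.4 CPM and a fitted range of 0.13 (adjusted p = 0.672), with all 24 libraries within 42.6 to 52.4 CPM. Cln3, mutated in juvenile neuronal ceroid lipofuscinosis in humans, had a range of 0.22 (adjusted p = 0.401), and Slc38a9 one of 0.25 (adjusted p = 0.631). A p above the threshold does not show that these levels were constant.

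Within the V-ATPase, the change that held best was in Atp6v1b2, which encodes the B2 isoform of the ATP-binding ring. It had 286, 283 and 273 CPM at 0 h, then 261, 245 and 272 at 1 h, then 259, 247 and 244 at 3 h. It had 251, 264 and 242 CPM at 5 h, then 251 and 266 at 6 h, then 221, 231 and 230.0 at 9 h, and 249 and 233 CPM at 15 h, then 262, 263 and 277 at 16 h, with 275 CPM in mouse 3 of 6 h and 229 CPM in mouse 3 of 15 h. All 3 mice of 9 h lay below the 3 of 0 h and below every other retained mouse, and the 3 of 0 h lay above all other retained mice but 1 of 16 h. Atp6v1b2 was lower at 9 h than at 0 h, with a log2 difference of -0.31 ± 0.06 (SE) in 22 libraries (adjusted p = 0.00181, below 0.05 in all 22 omissions) and -0.31 ± 0.08 (SE) in 24 (adjusted p = 0.0672). Its fitted range passed too (adjusted p = 0.017; 0.208 in 24 libraries; 0.067 without mouse 1 of 9 h; 0.107 with no filter on low counts). Rod marker sums were 1059.6 to 1708 CPM at 9 h, against 3359 to 5073 CPM at 0 h, and the part of rod RNA in this difference was not tested. Nor was that of the macrophage, mast cell and endothelial sums given above. Its ring partner Atp6v1a had 317, 299 and 315 CPM at 9 h, against 376, 334 and 347 CPM at 0 h, with no overlap but a difference of -0.18 ± 0.07 (SE) that missed the threshold (adjusted p = 0.0935).

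Among the other V1 subunits, Atp6v1d of the rotor shaft and Atp6v1e1 of the stalk had fitted ranges of 0.26 and 0.28 (adjusted p = 0.144 and 0.0528). The regulatory subunit Atp6v1h had 0.22 (adjusted p = 0.343) and Atp6v1g1 0.19 (adjusted p = 0.514). In V0, Atp6v0a1, which encodes the a1 subunit next to the ring, had 481, 499.7 and 505 CPM at 0 h, then 466, 469 and 451 at 3 h, then 592, 524 and 519 at 5 h. Its mice of 5 h lay above those of 0 h and 3 h, and its fitted range of 0.24 passed in 22 libraries (adjusted p = 0.0357; 0.439 in 24 libraries). This call was lost in 13 of 22 omissions, with the highest adjusted p without mouse 1 of 5 h (0.105). It was also lost with no filter (0.182) and with the replicate block (0.0555). Atp6v0c had a fitted range of 0.38 (adjusted p = 0.208) with the uncertainty given above, and 0.541 CPM, from 6 counts, in mouse 3 of 15 h. Gene and copy summed to 157, 206 and 237 CPM at 0 h, and to 240 to 298 CPM in the retained mice of the later times. The libraries left out had sums of 339 CPM in mouse 3 of 6 h and 74.0 CPM in mouse 3 of 15 h. The sum was not tested. The accessory protein Atp6ap2, also known as the prorenin receptor, had 253, 237 and 264 CPM at 1 h, then 292, 291 and 303 at 5 h, then 303 and 341 at 6 h, then 243, 245 and 270.0 at 9 h, and 286, 261 and 332 CPM at 16 h. The retained mice of 5 and 6 h lay above those of 1 and 9 h, and the libraries left out had 350.4 CPM in mouse 3 of 6 h and 253 CPM in mouse 3 of 15 h. The fitted range was 0.36 (adjusted p = 0.0273; 0.135 in 24 libraries; 0.0982 when mouse 2 of 6 h was dropped, 0.0514 when mouse 1 of 9 h was).

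The 24 h component passed for 4 of 28 membrane genes (Tmem192, Ostm1, Tpcn2 and Ctns) and 1 of 15 V-ATPase genes (Atp6v1b2) in 22 libraries, where 6.36% of all genes passed. DESeq2 called 5 and 1, where it called 9.54% of all genes. In 24 libraries it passed for 0 and 0, where 1.67% of all genes did, with 4 and 3 at an unadjusted p under 0.05 (16.1% of all genes) and 2 and 0 by DESeq2, which called 4.22% of all genes. The median log2 ratio was 0.13 over membrane genes and 0.13 over V-ATPase genes, against 0.25 over all genes. This ratio too widens with noise, and genes of like level were not compared. Ostm1 had a ratio of 0.43 ± 0.12 (SE) and a fitted peak at 10.8 ± 1.0 h (SE) (adjusted p = 0.0268; 0.0575 in 24 libraries), although no mouse was sampled between 9 and 15 h. Ctns had a ratio of 0.20 ± 0.05 (SE) with a peak at 15.1 ± 1.3 h (SE) (adjusted p = 0.0422; 0.974 in 24 libraries), and Atp6v1b2 one of 0.25 ± 0.06 (SE) with a peak at 21.6 ± 0.8 h (SE) (adjusted p = 0.0463; 0.248 in 24 libraries). Fitted peaks after 16 h lie outside the sampled hours. These calls rested on few times: without the 0 h mice none of the 5 passed, with adjusted p-values from 0.0806 to 0.333. Without 15 and 16 h, Tmem192 and Ostm1 still passed in 22 libraries, while Ctns, Tpcn2 and Atp6v1b2 had adjusted p-values of 0.836, 0.208 and 0.0941. Leaving out single libraries kept the call of Tmem192 in 22 of 22 cases, Ostm1 in 19, Tpcn2 in 13, Ctns in 8 and Atp6v1b2 in 6. With no filter Ctns and Atp6v1b2 were lost (0.092 and 0.084), and Atp6v1b2 also under RLE scaling (0.0502) and with the replicate block (0.0691).

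**Figure D5:**
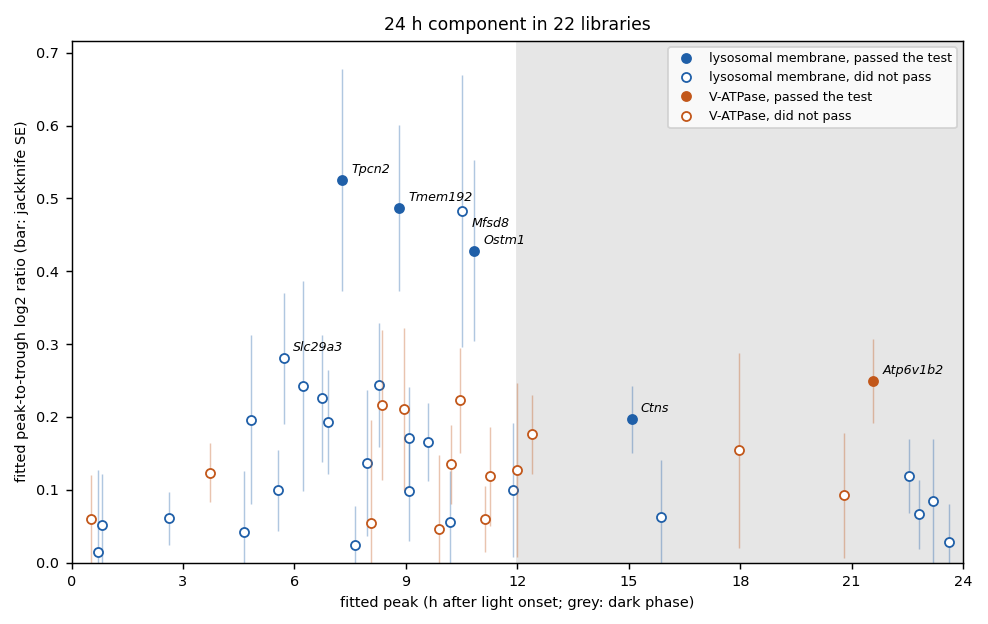
Fitted peak-to-trough log2 ratio of the 24 h component against the fitted peak hour for all 43 genes in 22 libraries; bars are jackknife SEs over libraries, filled points passed an adjusted p of 0.05, and grey marks the dark phase. Most genes lie below a ratio of 0.25, and the 5 passing genes peak at 7.3 to 21.6 h.

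Genes outside the 43 were counted from 3 further lists, to be read against the 16% of all genes that varied in 22 libraries. Of 10 other V-ATPase subunit isoforms, 7 were tested and 2 varied over the 8 times in 22 libraries. These were Tcirg1, the a3 subunit isoform of osteoclast pumps (fitted range 0.97, adjusted p = 7.15e-05), and Atp6v1e2, a stalk isoform known from testis (1.34, adjusted p = 0.000176). Atp6v1e2 was higher at 5 h than at 0 h by 1.31 ± 0.19 (SE) on the log2 scale (adjusted p = 0.000172). Of 12 pump assembly and regulatory genes, 11 were tested and 2 varied, Dmxl2 and Rogdi, which encode subunits of a complex that promotes assembly of the pump. Of 40 other lysosomal membrane genes, 36 were tested and 11 varied, led by Laptm5 (0.64, adjusted p = 0.000885) and Cd68 (0.54, adjusted p = 0.00864), both known from macrophages. In 24 libraries none of these 3 lists had a member that varied in edgeR, with 3, 0 and 5 at an unadjusted p under 0.05, where 17% of all genes were, and 1, 0 and 3 called by DESeq2, where 10.7% were. By contrast, all 8 clock genes listed (Arntl, Npas2, Cry1, Per1, Per2, Nr1d1, Dbp and Ciart) varied in both 24 and 22 libraries, with a median fitted range of 1.80 in the 22.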

How the data were processed

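The deposited file holds raw counts per gene, and per the submitters' processing notes STAR, HTSeq and the mm10 build were used by the authors; their versions, roles and annotation release are not given in the sources used here. Members were taken by symbol, and all 43 were found by identifier. The members and lists were chosen with earlier results of these data known. Genes with low counts were dropped with filterByExpr (minimum count 10), which kept 18065 of 54532 genes and 99.9% of counts. edgeR 4.0.16 (R 4.3.3; TMM, robust quasi-likelihood fits, Benjamini-Hochberg adjustment over all tested genes, call at 0.05) tested variation over the 8 times, a 24 h cosine and sine term, night (15 and 16 h) minus day (1 to 9 h), and each later time minus 0 h. The scripts were tested on simulated data with known changes. Contrast SEs come from the fit, and those of the 24 h ratio and peak hour from a jackknife over libraries. Alternatives were DESeq2 1.42.0, RLE scaling, no filter, a replicate block, other times and each library left out.

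Named genes were fixed by role, or were called over the 8 times, in the 24 h component, between night and day or in a contrast with 0 h, had the highest or lowest level per length of their class, or had 1 of the 3 smallest p-values of the 24 h component in their class. Exonic overlap was read from GENCODE vM21 annotation: 14 members share exonic bases with another gene, 4 of them over 10%. The kit does not mark strand, so reads of overlapping genes cannot be told apart. The 276 pairs of libraries differed by at least 5.71 in chi-square per degree of freedom, so none was a copy or a second sequencing of another library. This measure cannot show whether any of them came from the same RNA. Same-numbered mice were not treated as pairs in the main fits: of 84 same-numbered pairs, 16 had correlated deviations over 0.1.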

Additional observations from a re-analysis of the deposited data

Results flagged for a closer look

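Among the 6 night libraries (15 and 16 h), 13 of the 29 named genes had 1 library far from the other 5, by a gap over range above Dixon's critical value. Chance alone gives this in about 1 of 20 independent groups, which genes measured in the same 6 libraries are not. In 12 of the 13 the library was mouse 3 of 15 h, already known to differ in composition. The flag was not counted over all genes, and the part of this altered composition in these values was not tested.

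In mouse 3 of 15 h, 6 of these genes were above the other night mice. Cd63 had 2551 CPM (the others 524 to 584), Tmem192 84.7 CPM (24.7 to 28.8), Atp6v0b 571 CPM (181 to 209), Atp6v1d 239.0 CPM (101 to 117), Atp6v1e1 611 CPM (318 to 360.4) and Atp6v1g1 311 CPM (171 to 201). The other 6 were below them. Lamp1 had 239 CPM (the others 380.0 to 419.5), Npc1 16.4 CPM (86.3 to 96.8), Ctns 15.5 CPM (43.9 to 50.5), Slc38a9 10.7 CPM (15.4 to 17.4), Atp6v0c 0.541 CPM (18.005 to 25.2) and Atp6v1a 131 CPM (338 to 389). The remaining gene, Lamp2, had 511.5 CPM in mouse 3 of 16 h, against 333 to 399 CPM in the other night mice.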

How the results depend on the processing

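No called value changed sign. Variation over the 8 times in 24 libraries gave 1 membrane and 0 V-ATPase genes; RLE scaling, no filter and the replicate block each gave 0 membrane genes, DESeq2 gave 3 and 2, the 22 libraries 6 and 3, and leaving out 1 library 0 to 2 and 0 to 1. In 22 libraries (6 and 3) DESeq2 gave 11 and 5, the replicate block 5 and 2, no filter 7 and 3 (of which 5 and 1 were among the reported 6 and 3), and leaving out 1 library 4 to 7 and 0 to 5, where dropping mouse 1 of 9 h gave 0 V-ATPase genes, mouse 2 of 6 h gave 1 and mouse 1 or 3 of 3 h gave 5.

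The 24 h component in 24 libraries (0 and 0) gave 2 membrane genes by DESeq2, 1 without 15 and 16 h, and 4 membrane and 1 V-ATPase gene in 22 libraries; leaving out 1 library gave 0 to 3 membrane genes. In 22 libraries (4 and 1) omitting 0 h gave 0 and 0, and the V-ATPase call also went to 0 under RLE scaling, no filter, the replicate block and without 15 and 16 h. Leaving out 1 library gave 2 to 5 and 0 to 2, and 9 of 22 omissions gave 2 membrane genes.

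Night against day in 24 libraries (0 and 0) gave 1 membrane gene by DESeq2, 3 in 22 libraries, and 4 membrane and 2 V-ATPase genes with 15 h alone; single omissions gave 0 to 1 of each. In 22 libraries (3 and 0) no filter gave 1 membrane gene, 15 h alone 1 and 16 h alone 0; single omissions gave 0 to 3, where dropping either mouse of 15 h gave 0 and mouse 3 of 16 h gave 1. Counted over the 7 contrasts with 0 h, 24 libraries gave 0 and 0 calls, DESeq2 8 and 5, the 22 libraries 10 and 2, and single omissions 0 to 7 and 0 to 6. In 22 libraries DESeq2 gave 4 V-ATPase calls, and single omissions 5 to 12 and 1 to 3, with 5 membrane calls without mouse 2 of 0 h. The replicate block lost the 9 h calls of Ostm1, Sidt2 and Tpcn2, and the night call of Tpcn2. The cause of these changes was not tested. The replicate numbers were not taken as pairs in the main fits. Same-numbered deviations correlated at -0.30 to 0.51 (median 0.02, against -0.006 for differently numbered mice), and 12 of 24 libraries correlated best with their own number. These correlations cannot show whether same-numbered mice shared a batch.

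With 2 or 3 mice a time, low genes such as Tpcn2 and Slc38a9, at most 348 counts a library, are the least precise. No time between 9 and 15 h or after 16 h was sampled. In the 250 bases before the start alone, CACGTG occurred in 8 of 35 members (22.9%), against 6.86% of genes.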
